A study of Homo sapiens with 3 samples.

Results

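The block described here is a stretch of the short arm of chromosome 8, from 26 to 32 Mb in the human genome build hg19, where peaks of 2 ChIP-seq lists stood on a raised background. Its members were all peaks of either list whose summit lay in that stretch, and the stretch itself had been chosen by the background recovered from the deposited peak values. It held 1366 of the 331107 peaks of both lists, of which 701 came from the Spindlin1 list (0.457% of 153468 peaks) and 665 from the C11orf84 list (0.374% of 177639). The flanks used for comparison were 20 to 26 Mb, with 256 Spindlin1 and 338 C11orf84 peaks, and 32 to 38 Mb, with 163 peaks in each list.

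ChIP-seq, the sequencing of DNA fragments pulled down with an antibody to a chromatin protein, was done in untreated U2OS cells, an established human osteosarcoma line, to map both proteins over the genome. One library was made with an antibody to Spindlin1 and another with an antibody to C11orf84, and a further Input library was made without antibody. No peak list of the Input was used here. With 1 library per antibody there was no replicate, so every value below describes these libraries and no p-value is given.

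Spindlin1 is a reader protein whose tudor-like domains bind methylated lysine on histone H3, and C11orf84 is a partner protein that forms a complex with it. A ChIP-seq peak is a place where fragments pile up above the level that the local background predicts. The density of Input reads, from which such a background is usually taken, depends on how many copies of a stretch the cells carry, on how well reads map there and on how easily its chromatin is sheared. U2OS is known for a rearranged chromosome set with gained and lost segments.

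The depth at a summit (fragments stacked over it) and the background below it were recovered from each peak's deposited fold and −log10 p. The background is given as a multiple of the floor, the lowest background of the list, and is called raised from 2 times the floor upward. Each background was the largest of several windows around the peak, so it is an upper bound on the level of the widest window, which spans 10 kb. The median background of the members was 2.70 times the floor in the Spindlin1 list and 2.65 times in the C11orf84 list. It was 1.00 in the left flank of both lists, and 1.14 and 1.13 in the right flank. A raised background was found under 542 Spindlin1 members (77.3%) and 521 C11orf84 members (78.3%), where the whole lists gave 9.07% and 9.19%. A background at the floor was found under 17 (2.43%) and 15 members (2.26%), where the whole lists gave 48.2% and 49.3%. These values picked the block, so they describe it and support nothing further.

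Within the 6 Mb, the raised background did not run from end to end. A search for the 2 best edges between 20 and 38 Mb, over stretches of at least 20 peaks, put the rise in the Spindlin1 list between the summits at 26802464 and 26814154. The fall lay between the summits at 30346696 and 30408288. In the C11orf84 list the rise fell between summits 26724471 and 26814174, and the fall between summits 30304302 and 30406591. The intervals of the 2 lists overlapped at both ends. The label of a raised block therefore holds for about 26.81 to 30.38 Mb, and not for the ends of the 6 Mb stretch.

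A search with both lists together and 4 edges, added after the data were seen, divided the region into 5 stretches. A low step ran from 23.7 to 26.8 Mb, with median backgrounds of 1.36 (Spindlin1) and 1.38 (C11orf84). The first plateau ran from 26.8 to 28.7 Mb, and its median backgrounds were 2.45 and 2.42 times the floor. The second plateau ran from 28.7 to 30.4 Mb with 3.93 and 3.82. After the drop at 30.4 Mb the medians were 1.14 and 1.11 as far as 38 Mb, and ahead of the low step they were 1.00 in both lists. The plateaus were 1.88 and 1.68 Mb long, and together they held 604 Spindlin1 (86.2%) and 580 C11orf84 members (87.2%). None of these peaks stood at the floor.

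**Figure D1:**
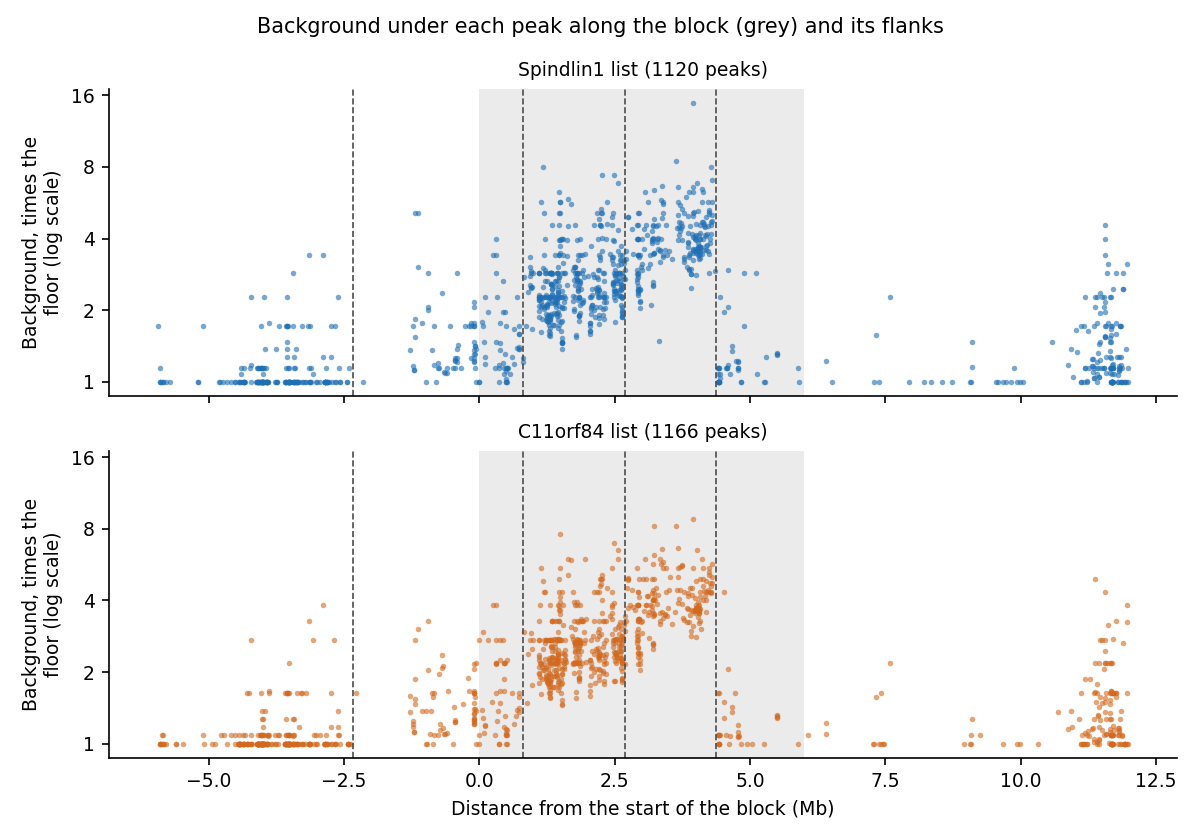
Background under each peak as a multiple of the floor (log axis) against the distance of its summit from the start of the block in Mb, with the Spindlin1 list above and the C11orf84 list below. The block is grey and dashed lines mark the 4 edges found with both lists together: the points rise to 2.45 and 2.42 times the floor at the median on the first plateau, reach 3.93 and 3.82 on the second, and fall back to 1.14 and 1.11 after it.

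The edges differed in how closely the lists placed them. The inner step fell between summits 28688807 and 28695163 with both lists together. Alone, the Spindlin1 list put it between 28976985 and 29000460, and the C11orf84 list between 28682173 and 28695163, so the lists placed it differently. With 3 edges the C11orf84 list placed its first edge between 26110705 and 26149067 instead of near 26.8 Mb. The start of the low step was looser still, between 23842094 and 24722943 in the Spindlin1 list and between 23621930 and 23712227 in the C11orf84 list. Peaks mark the background only where they exist, so an edge cannot be placed more finely than the gap between neighbouring summits.

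Adding edges gave smaller gains each time. The summed absolute deviation of log2 background over the 1120 Spindlin1 peaks went from 568 with 1 edge to 416 with 2, 357 with 3, 336 with 4, 330 with 5 and 327 with 6. Over the 1166 C11orf84 peaks it went from 545 to 404, 342, 315, 311 and 307. Most of the fit was reached with 3 edges.

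The members at the ends of the block, outside both plateaus, had a lower background than those on the plateaus. Before the plateaus there were 51 Spindlin1 and 49 C11orf84 members, with medians of 1.37 and 1.41 times the floor. After them there were 46 and 36 members, with medians of 1.14 and 1.09. Only the members after the plateaus had medians near those of the flanks. The members before the plateaus are themselves part of the low step, so their medians lie near its medians by construction. The first Spindlin1 member, at chr8:26047907-26048105, had 14 fragments on 1.79 times the floor, and the nearest peak before 26 Mb, at chr8:25998631-25998802, had 10 fragments on 1.00 times the floor. The last Spindlin1 member, at chr8:31895240-31895421, had 9 fragments at the floor, and the next peak, at chr8:32406007-32406890, had 12 on 1.23 times the floor. In the C11orf84 list the first member had 12 fragments on 1.39 times the floor, and the last one, at chr8:31888817-31889047, had 11 fragments at the floor. No edge search placed an edge at 26 or 32 Mb itself. The closest to 26 Mb was the C11orf84 edge between summits 26110705 and 26149067, found with 1 and with 3 edges. Single peaks at the limits cannot show whether a step lies there.

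The peaks on either side of the rise and of the fall are those between which the search placed its edges. The search used their backgrounds, so the differences between them describe the steps only. The windows that set these backgrounds were not all of the same length. The Spindlin1 peak before the rise, at chr8:26802304-26802606, had 14 fragments on 1.26 times the floor and a fold of 6.84. The peak after it, at chr8:26814012-26814299, had the same 14 fragments on 2.75 times the floor and a fold of 4.16. The lower fold at equal depth follows from how the fold is made. The C11orf84 peak at that second place, chr8:26813973-26814309, had 18 fragments on 2.94 times the floor. The C11orf84 peak before it, at chr8:26724333-26724591, had 24 fragments on 1.58 times the floor. At the fall, the Spindlin1 peak at chr8:30346586-30346828 had 19 fragments on 2.94 times the floor, and the next one, at chr8:30408198-30408369, had 10 on 1.08. The C11orf84 peaks there had 29 fragments on 5.68 times the floor and 16 on 1.64.

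Among all 1 Mb windows of chromosomes 1 to 22 and X with at least 20 peaks, the block held several of the highest backgrounds. Of 1289 such windows in the Spindlin1 list, 17 had a raised median, and of 1368 in the C11orf84 list, 15 did. The window at 29 to 30 Mb ranked 2 in both lists, with 3.99 and 3.87 times the floor. The window at 30 to 31 Mb ranked 3 and 4, with 3.55 and 3.60. The windows at 28 to 29 Mb and 27 to 28 Mb ranked 7 and 9 in both lists. The window at 26 to 27 Mb, which the rise crosses, ranked 69 and 76.

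All backgrounds other than the floor were whole multiples of a unit, taken here as 1 Input read, counted in a window of 1 fragment length, 1 kb or 10 kb. That reading is an inference, since the control of the peak calling is not known. The floor equalled 102 reads per 10 kb in both lists. A 10 kb window set the background of 184 of 392 Spindlin1 peaks on the first plateau, with a median of 224.5 reads, and of 179 of 388 C11orf84 peaks, with 224. On the second plateau it set that of 101 of 212 and 96 of 192 peaks, with medians of 368 and 370 reads. These medians were 2.20 and 3.61 times the floor for Spindlin1, and 2.20 and 3.63 times for C11orf84.

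On the low step the same medians were 128 and 127.5 reads per 10 kb, and after the drop they were 125 and 120. Only counts above the floor can appear in these windows, so the low values are cut off from below. Interquartile ranges were 193 to 255.5 reads (Spindlin1) on the first plateau and 333 to 427 on the second, with no overlap between them. In the C11orf84 list they were 193.5 to 247 and 332.25 to 425.25. The plateaus were cut by these same backgrounds, so the separation of the ranges describes that cut and supports nothing further.

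The backgrounds of the 2 lists were not independent measurements. There were 89 pairs of members, 1 from each list, with summits at most 20 bp apart and a 10 kb window setting both backgrounds. The recovered read number was equal in 62 of them and within 2 reads in 88, and the largest difference was 3 reads. Agreement of the lists on the steps therefore repeats 1 set of Input reads, if the unit is an Input read. Copy number, mapping and chromatin cannot be told apart as sources of the steps from these files.

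Peaks lay closer together in the block than in its flanks. The Spindlin1 list had 117 peaks per Mb in the block, 42.7 in the left flank, 27.2 in the right flank and 52.0 in the rest of the list. The C11orf84 list had 111, 56.3, 27.2 and 60.4. The block thus held 3.35 times as many Spindlin1 peaks per Mb as both flanks together, and 2.65 times as many C11orf84 peaks. Against the rest of each list, the ratios were 2.25 and 1.84. Peaks covered 207 kb (3.45%) of the block in the Spindlin1 list and 218 kb (3.64%) in the C11orf84 list, against 1.11% and 1.58% of the left flank and 0.794% and 0.998% of the right.

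Most of the excess lay on the first plateau, which had 208 Spindlin1 and 206 C11orf84 peaks per Mb. The second plateau, with its higher background, had fewer, at 126 and 114 per Mb. Before the plateaus the block had 63.1 and 60.6 peaks per Mb, above both flanks, and after them 28.3 and 22.2. Peak number and background thus did not rise in step from the first plateau to the second.

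**Figure D2:**
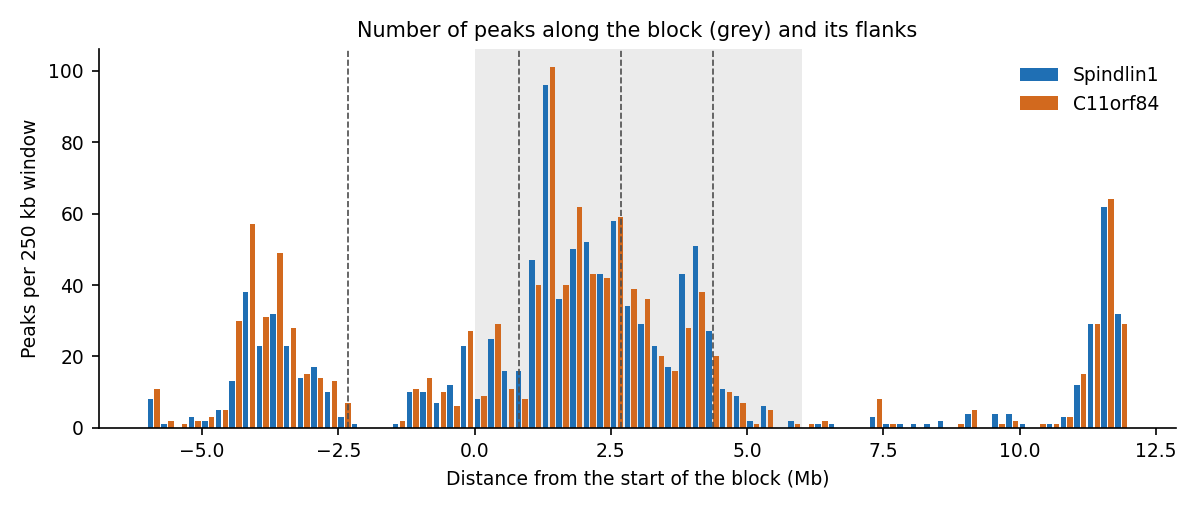
Number of peaks per 250 kb window against distance from the start of the block in Mb, with Spindlin1 in blue, C11orf84 in orange, the block in grey and the 4 edges dashed. The first plateau carried the tallest bars, at 208 and 206 peaks per Mb, and the stretch just after the block was nearly empty.

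Both flanks were uneven. Windows of 1 Mb in the left flank held 11 to 92 Spindlin1 and 13 to 123 C11orf84 peaks, with the most at 22 to 23 Mb. In the right flank, the window at 37 to 38 Mb held 135 of the 163 Spindlin1 and 137 of the 163 C11orf84 peaks. Each of the 5 windows before it held 2 to 12 and 1 to 9. The block as a whole had 117 and 111 peaks per Mb. Within the block, the window at 27 to 28 Mb was the fullest, with 229 and 243 peaks, and the one at 31 to 32 Mb the emptiest, with 10 and 7. Among 60 windows of 100 kb, 7 held no Spindlin1 and 6 no C11orf84 peak. The 6 densest held 29.7% of Spindlin1 and 32.3% of C11orf84 members, and the densest in both lists lay at 27.4 to 27.5 Mb, with 43 and 47 peaks.

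The 2 lists had nearly the same number of members, which was not so over the genome. The Spindlin1 list held 1.05 peaks per C11orf84 peak in the block, 0.757 in the left flank and 1.00 in the right, and 0.864 over the whole lists. On the low step and after the drop the ratio was 0.958 and 1.05, and over the rest of chromosome 8 it was 0.983. The ratio of the block was thus near that of the right flank and of the rest of its chromosome. The low step and the stretch after the drop hold some of the members, so they are not separate comparisons.

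Strong peaks, by the authors' own −log10 q, made up a larger part of the block than of the lists. In the Spindlin1 list 197 members (28.1%) had a −log10 q of 10 or more, and in the C11orf84 list 259 (38.9%), where the whole lists gave 11.8% and 15.7%. The rest of chromosome 8 gave 32.2% and 36.9%, below which the Spindlin1 share of the block lay and above which the C11orf84 share lay. Per Mb, the block had 32.8 and 43.2 such peaks, and the flanks together 3.25 and 5.42. The q-value rests on the background that chose the block, so these counts are descriptive too.

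Peaks of high fold were not a larger share of the Spindlin1 members. A deposited fold of at least 8 was reached by 58 Spindlin1 members (8.27%), where the whole list gave 9.05%, and by 75 C11orf84 members (11.3%), where it gave 8.9%. In number per Mb they still exceeded the flanks, with 9.67 and 12.5 in the block against 1.92 and 1.83. The second plateau, with the highest background, had 11 (5.19%) and 16 (8.33%) such peaks, and the first plateau 42 (10.7%) and 55 (14.2%).

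The median summit of the block was deeper than that of the flanks and of the rest of the lists. The median depth was 19 fragments in the Spindlin1 and 20 in the C11orf84 list, against 10 and 11 in the left flank, 12 and 14 in the right, and 11 and 12 in the rest of each list. On the second plateau it was 21 and 23. The least depth among called peaks was also larger on a higher background. Over the whole lists it was 6 fragments at the floor and 9 close to 2 times the floor in both, and 12 (Spindlin1) and 13 (C11orf84) close to 3 times the floor, among 95 and 94 peaks there. The part of this limit in the greater depth of the block was not tested.

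Steps in depth fell close to those in background. A search for 2 edges in summit depth put them between summits 26926155 and 26932706 and again between 30346696 and 30408288 in the Spindlin1 list, where the median went from 11 to 20 and back to 12 fragments. In the C11orf84 list they lay between 26723648 and 26724471 and between 30304302 and 30406591, with medians of 11, 21 and 13. The fall in depth therefore had the same flanking summits as the fall in background in both lists. The least depth called was larger on a higher background, so the 2 falls are not independent.

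The ratio of depth to background, and the fold, have as denominator the background that chose the block, so their values describe it only. The median ratio of summit depth to background was 7.27 (Spindlin1) and 7.09 (C11orf84) in the block, against 10.5 and 9.73 in the rest of each list. It was 7.60 and 7.43 on the first plateau and 5.58 and 5.55 on the second. The median fold followed this order, with 5.68 and 5.75 on the first plateau and 4.61 and 4.76 on the second, against 5.72 and 5.89 in the rest of each list.

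**Figure D3:**
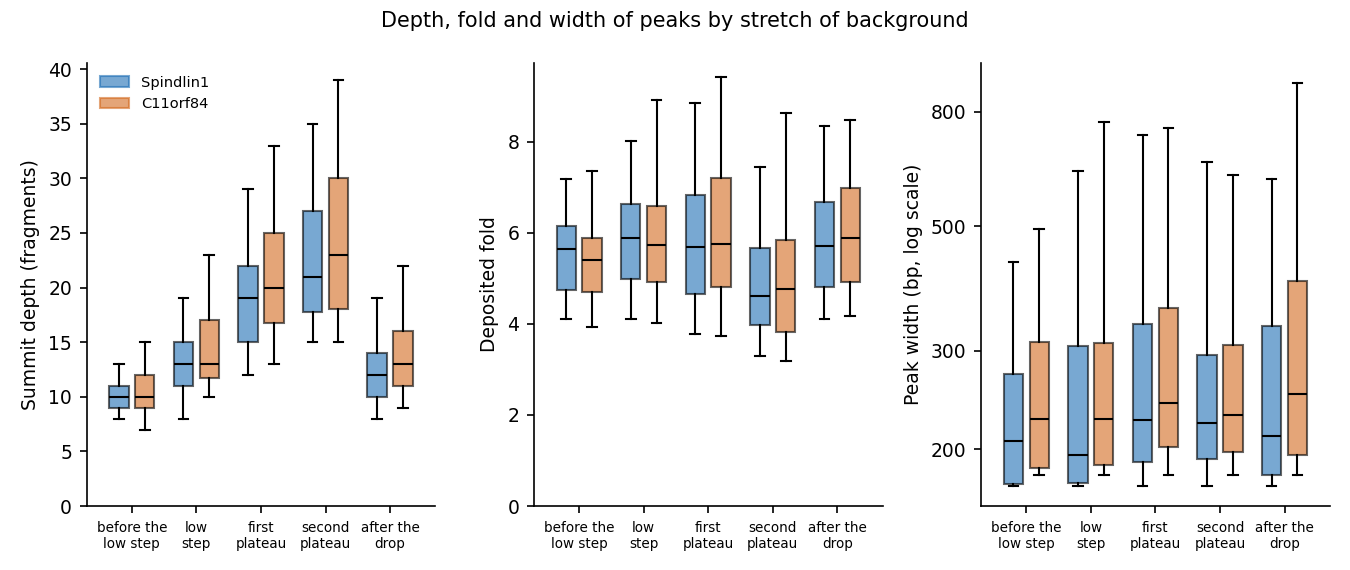
Summit depth in fragments, deposited fold and peak width in bp (log axis) of the Spindlin1 (blue) and C11orf84 (orange) peaks in each of the 5 stretches between 20 and 38 Mb. Boxes span the quartiles with the median as a line, and whiskers reach the 5th and 95th percentiles: depth is highest on the second plateau (medians 21 and 23), fold is lowest there (4.61 and 4.76) and width differs little.

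The median peak of the block was not wider than that of the rest of the lists. The median width was 219 bp (quartiles 188 and 308) in the Spindlin1 list, against 206 bp in the left flank, 219 in the right and 229 in the rest. In the C11orf84 list it was 236 bp (quartiles 198 and 335), against 227, 262 and 248. A width of at least 1 kb was found for 16 Spindlin1 (2.28%) and 22 C11orf84 members (3.31%), where the whole lists gave 1.48% and 2.42%, and the rest of chromosome 8 gave 7.48% and 8.35%. All 16 of these Spindlin1 peaks lay on the plateaus, and so did 19 of the 22 in the C11orf84 list. The plateaus held 86.2% and 87.2% of all members, so these counts set wide peaks little apart from the others.

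The widest Spindlin1 member spanned 3218 bp at chr8:29205089-29208306, with 33 fragments on 2.55 times the floor. A C11orf84 peak of 3376 bp covered it at chr8:29205074-29208449, with a summit 7 bp away. The widest C11orf84 member spanned 3926 bp at chr8:28925311-28929236 and overlapped 3 Spindlin1 peaks, of which 1 spanned 1693 bp at chr8:28927067-28928759 with a fold of 11.1. The longest interval of each list thus overlapped a long one of the other, and the lists divided the second of these places differently.

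The widths of members were set beside those of peaks elsewhere with a like background. From 3 to 5 times the floor, the median width of Spindlin1 peaks was 217 bp for 213 members and 319 bp for 2455 peaks of the rest of the list. For C11orf84 peaks it was 228 bp for 213 members and 340 bp for 3055 others. From 2 to 3 times the floor the values were 227 against 269 bp, and 242 against 288 bp. From 1.5 to 2 times the floor they were 223.5 against 236 bp, and the same 256 bp for members and others in the C11orf84 list. Below 1.5 times the floor they were 191 against 225 bp and 216 against 243 bp. The median was thus lower in the block in each of these bands except the one at 1.5 to 2 times the floor in the C11orf84 list.

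The windows that set the background differed as well. At 3 to 5 times the floor, a 1 kb or 10 kb window set it for 73.7% of Spindlin1 members (95% interval 67.3 to 79.5) against 17.8% of the others. For C11orf84 it was 67.6% (60.9 to 73.8) against 16.8%. The rest of the raised backgrounds came from the short window of 1 fragment length. The block was chosen as a long stretch of raised background, so wide windows are part of that choice and this is a description only. Intervals here and below are exact Clopper-Pearson intervals, which cover counting error only and treat neighbouring peaks as independent.

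**Figure D4:**
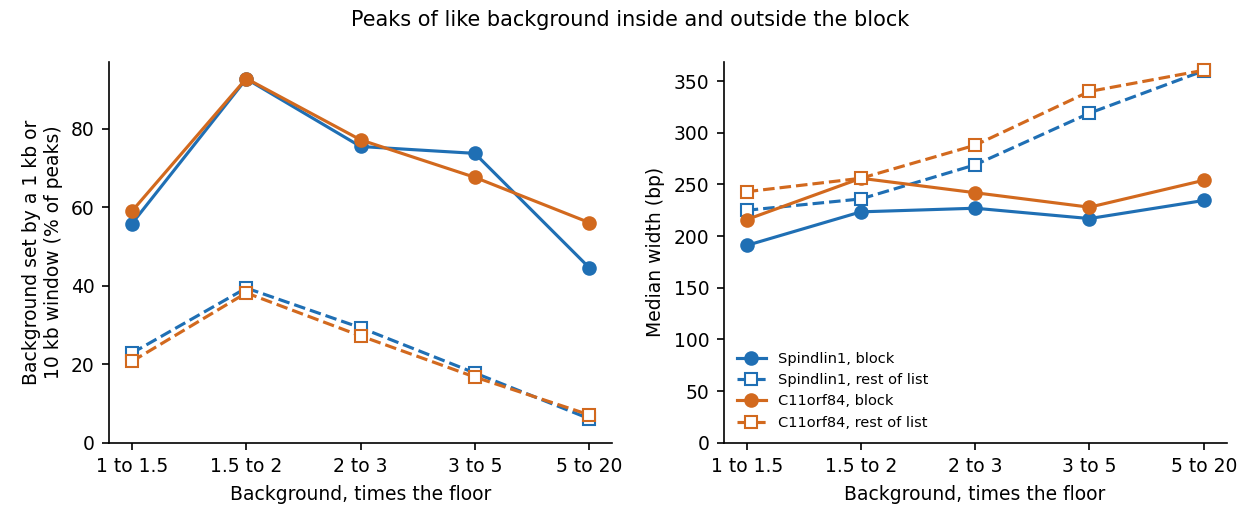
Percentage of peaks whose background was set by a 1 kb or 10 kb window (left) and median peak width in bp (right), by background as a multiple of the floor, for members (filled circles, solid lines) and the rest of each list (open squares, dashed lines). At 3 to 5 times the floor the members stood at 73.7% and 67.6% against 17.8% and 16.8%, and at 217 and 228 bp against 319 and 340 bp.

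The block and the rest of the lists were next compared by sharing, in which a peak counts as shared when at least 1 bp of it lies in a peak of the other list. In the block 477 Spindlin1 members were shared (68.0%, 64.5 to 71.5), where the whole list gave 69.7%. For C11orf84, 460 members were shared (69.2%, 65.5 to 72.7), where the whole list gave 57.6%. The left flank had 49.2% and 37.6%, and the right flank 68.1% and 63.2%. The rest of chromosome 8 had 74.8% and 67.4%, above the interval of the Spindlin1 members and inside that of the C11orf84 members. Sharing in the block was thus above that of the left flank in both lists, with intervals that did not overlap (42.9 to 55.5 and 32.4 to 43.0 in the left flank), and its intervals overlapped those of the right flank (60.4 to 75.2 and 55.3 to 70.6). The intervals had 145 kb in common, which was 70.1% of the Spindlin1 and 66.5% of the C11orf84 length in the block. In the left flank these were 43.6% and 30.7%, and in the right 71.4% and 56.8%.

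Sharing was lower on the second plateau than on the first. It was 75.8% (71.2 to 79.9) and then 60.4% (53.5 to 67.0) for Spindlin1, and 73.5% (68.8 to 77.8) and then 65.6% (58.4 to 72.3) for C11orf84. The intervals of the plateaus did not overlap in the Spindlin1 list and did overlap in the C11orf84 list. When 50% of both peaks had to overlap, the Spindlin1 intervals, 59.3 to 69.0 and 46.8 to 60.6, overlapped too. The ends of the block outside the plateaus had 53.6% and 57.6%. The plateaus were cut by background after the data were seen, and the intervals treat neighbouring peaks of 1 library as independent. Their overlap is therefore no test between the plateaus. Strength differed too: 33.9% and then 26.4% of Spindlin1 peaks had a −log10 q of 10 or more, and 44.6% and then 40.1% of C11orf84 peaks. Its part in the lower sharing was not tested.

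Sharing also followed the strength of the peaks. Among Spindlin1 members it was 39.5% (30.9 to 48.7) at a −log10 q of 2 to 5, 63.4% (58.4 to 68.3) at 5 to 10, 93.7% (88.4 to 97.1) at 10 to 15 and 98.1% from 15 upward. The rest of the list gave 56.8%, 71.5%, 89.8% and 98.1%. In the 2 weaker bands the rest of the list lay above the interval of the members, and that difference was not tested. Among C11orf84 members the shares were 45.4% (35.8 to 55.2), 60.1% (54.3 to 65.7), 85.2% (78.8 to 90.3) and 96.9% (91.2 to 99.4), and the values of the rest of the list, 40.9%, 57.2%, 81.7% and 94.9%, lay inside these intervals.

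**Figure D5:**
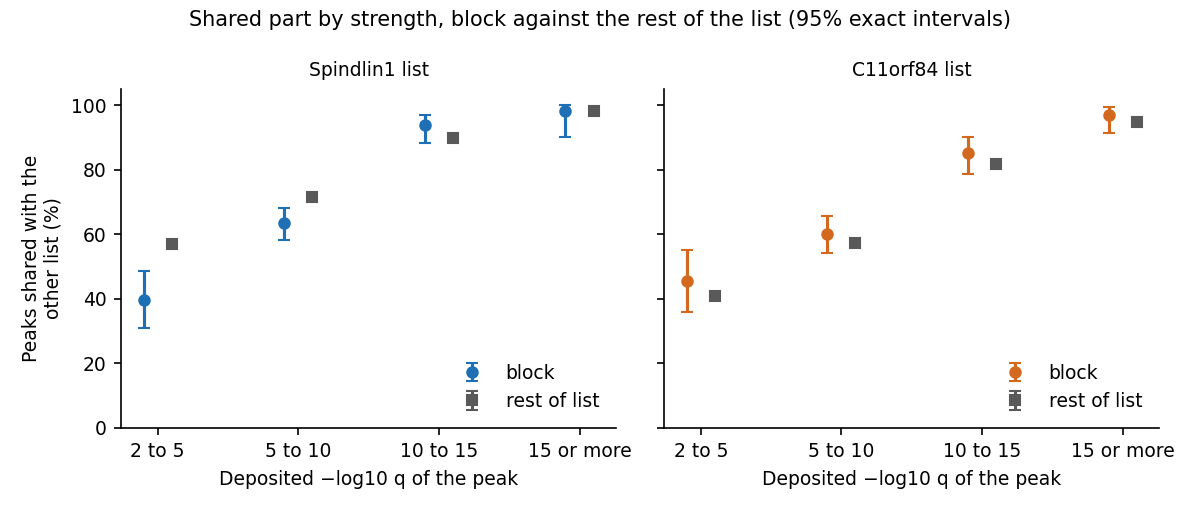
Percentage of peaks shared with the other list by deposited −log10 q, for members (coloured circles with exact 95% intervals) and the rest of each list (grey squares). Spindlin1 members stood at 39.5% and 63.4% in the weaker bands against 56.8% and 71.5% elsewhere, and the C11orf84 squares lie inside the intervals of the members.

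Distances to the other list were also measured. The nearest summit of the other list was more than 5 kb away for 57 Spindlin1 (8.13%) and 46 C11orf84 members (6.92%), against 17.97% and 18.9% in the left flank and 12.9% and 12.3% in the right, and 8.57% and 11.2% in the whole lists. The Spindlin1 share was thus near that of its whole list. Unshared members were also shallower than shared ones, with median depths of 16 against 20 fragments in the Spindlin1 list and 17 against 22 in the C11orf84 list. Their median folds were 4.61 against 5.85, and 4.75 against 5.89. The whole lists had the same order, with median depths of 10 against 12 and 11 against 13 fragments. Median folds there were 5.46 against 6.14, and 5.40 against 6.10.

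Where both lists had a summit within 200 bp of each other, the depths were close. There were 423 such pairs in the block, with a median C11orf84 to Spindlin1 depth ratio of 1.08 (quartiles 0.941 and 1.25), and 83537 in the rest of the lists, with a ratio of 1.08 (0.905 and 1.27). The C11orf84 summit was the deeper in 58.4% of pairs in the block, 54.0% in the rest of the lists, 50% in the left flank and 46.1% in the right. The median distance between the summits was 25 bp in the block and 39 bp elsewhere. Most overlaps were one to one, and 10 of 701 Spindlin1 and 25 of 665 C11orf84 members overlapped several peaks of the other list. In both flanks together, 11 of 419 and 16 of 501 peaks did so. Such counts over the whole lists are not given, so these numbers are no trait of the block.

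The strongest members by fold came from the plateaus. The Spindlin1 peak at chr8:28045522-28045766 had the highest fold of the members in its list, 11.96, with 29 fragments on 1.59 times the floor, and ranked 271 in the list. The C11orf84 peak there, with its summit 10 bp away, had 25 fragments on the same 1.59 times the floor and a fold of 9.81. The next Spindlin1 peaks, at chr8:27525194-27525493 and chr8:28918837-28919540, had folds of 11.8 and 11.5, with 27 and 38 fragments. All 5 Spindlin1 members of highest fold overlapped a C11orf84 peak.

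In the C11orf84 list the highest fold, 11.5, belonged to the peak at chr8:27526559-27527752, with 28 fragments on 1.46 times the floor, and ranked 651. It overlapped 2 Spindlin1 peaks, 1 of them at chr8:27527304-27527635 with a fold of 11.3. The next, at chr8:27318986-27320941, had a fold of 11.5 as well, with 36 fragments on 2.14 times the floor. The fifth, at chr8:28217068-28217361, had 29 fragments and a fold of 10.3, where the Spindlin1 peak on the same background of 1.86 times the floor had 13 fragments and a fold of 5.07. Of these 5 C11orf84 members it differed most in depth from the leading Spindlin1 peak that it overlapped.

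The deepest summits were not those of highest fold. The deepest Spindlin1 member, at chr8:27471823-27472548, had 49 fragments on 6.28 times the floor and a fold of 7.19. The deepest C11orf84 member, at chr8:29952573-29953687, had 54 fragments on 5.45 times the floor and a fold of 8.26. Both overlapped peaks of the other list, with 37 and 35 fragments. These members were named after their depths were seen.

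The highest background of the block lay under the same place in both lists. The Spindlin1 peak at chr8:29940185-29940869 had 43 fragments on 14.8 times the floor and a fold of 2.92, and the C11orf84 peak at chr8:29940032-29940911 had 53 fragments on 8.83 times the floor and a fold of 5.31. Their summits were 227 bp apart. At the next place, chr8:29631158-29631346 in the Spindlin1 list, the backgrounds were 8.44 and 8.25 times the floor, with 30 and 40 fragments.

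Members of high fold with no overlapping peak in the other list were also found. Among Spindlin1 members these were led by chr8:26365250-26365492, before the plateaus, with 19 fragments on 1.14 times the floor and a fold of 9.60. Its nearest C11orf84 summit lay 462 bp away. Among C11orf84 members they were led by chr8:27295626-27295876, with 25 fragments on 1.64 times the floor, a fold of 9.63 and the nearest Spindlin1 summit 560 bp away. The second in each list, at chr8:28223387-28223597 (Spindlin1, fold 7.92) and chr8:28125263-28125497 (C11orf84, fold 9.08), had their nearest summit of the other list 3702 and 4986 bp away.

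Peaks were not assigned to genes, since no hg19 annotation was used here. The RefSeq annotation of another build served only for the order of genes on the chromosome. A list of 40 protein-coding genes known to lie in that region of the short arm was matched in full on chromosome 8. It ran from PPP2R2A, a regulatory subunit of protein phosphatase 2A, through PTK2B, a tyrosine kinase, CLU, which encodes the chaperone clusterin, DUSP4, a phosphatase of MAP kinases, GSR, which encodes glutathione reductase, and WRN, a DNA helicase, to NRG1, which encodes the growth factor neuregulin. From the first to the last there were 42 protein-coding genes and 128 genes of any kind.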

How the data were processed

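ChIP-seq was measured in 3 samples, and the peak lists of the Spindlin1 and C11orf84 samples were used. Per the submitters' processing notes, Bowtie 1.2.2 was used and the build was hg19. For the peak calling, program, threshold and control were not given in the sources used here. The deposited lists give each peak's interval, summit, fold (a ratio of the summit to a local background), −log10 p-value, −log10 q-value and a score, all made by the authors. The score was not used further.

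Depth k and background λ were solved from fold = (k + 1)/(λ + 1) and a Poisson tail probability above k. A whole k was found for every peak, with a largest error of 0.000174 in −log10 p. For 16 Spindlin1 peaks a second whole k came nearly as close. A floor match allowed 0.1%. Total read numbers are unknown. Whole-list shares used chromosomes 1 to 22 and X. Coordinates count from 1. Edges minimised the summed absolute deviation of log2 background. Regions were named by a rule: per list, the 5 members of highest fold, and the 3 widest, of highest background and of highest unshared fold, with those at the limits of the block and at the edges. The text gives the leading ones. Members, lists and rules were chosen with earlier results of these data known. The recovery, the overlap and the edge search were tested on simulated data. Software was Numba 0.67.0, matplotlib 3.10.9, SciPy 1.17.1, NumPy 2.4.6 and pandas 2.3.3 under Python 3.11.15.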

Additional observations from a re-analysis of the deposited data

How the results depend on the processing

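Values are given for Spindlin1 and then C11orf84. Keeping only peaks of −log10 q of at least 10 gave 32.8 and 43.2 peaks per Mb, median widths of 268 and 286 bp, sharing of 74.1% and 53.7% (with that limit in both lists) and a Spindlin1 background of 2.55. A whole-list share under that limit is not given, so these shares cannot be read as a trait of the block. Over the whole lists 18068 and 27877 peaks met the limit. Keeping only folds of at least 8, chosen after the data were seen, gave 9.67 and 12.5 per Mb. Sharing was 58.1% and 61.2% when 50% of both intervals had to overlap, where the whole lists gave 47.5% and 41.1%. For summits at most 200 bp apart it was 60.3% and 63.6%, where the whole lists gave 55.1% and 47.5%. Under both rules the Spindlin1 share of the block lay above that of its whole list, unlike under the 1 bp rule. The rest of chromosome 8 gave 54.5% and 53.6% under the first rule, and 55.4% and 54.4% under the second. Backgrounds set by 1 kb or 10 kb windows had medians of 2.57 and 2.53, and moved the left of 2 edges to 28.98 and 28.68 Mb, the inner step. Searching 24 to 34 Mb did so too, at 28.70 and 28.68 Mb. With 3 edges those wider windows again gave a left edge at 26.81 and 26.77 Mb. Medians of 250 kb windows put the right edge at 30.25 Mb in both lists and the Spindlin1 left edge at 26.75 Mb, which is their grid. Other numbers of edges, both lists together, and steps of depth were also chosen after the data were seen. No paired analysis was possible because each antibody has 1 library. The least depth called close to 3 times the floor was 12 and 13 fragments, among 95 and 94 peaks. Close to the floor it was 6 in both lists, among 76553 and 90533 peaks. For the 12 and 8 members close to 3 times the floor it was 16 and 14. The part of this limit in the greater depth of the block was not tested.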
